A study of Homo sapiens with 6 samples.

Results

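The mRNA profile of 786-O cells labelled PHYHD1-MT (MT) was compared with that of 786-O cells carrying an empty vector (EV), gene by gene across cellular functions. A named gene was included when its deposited RNA-seq value reached 1 in at least 1 of the 2 libraries, and 11016 of the 19669 named genes of the series did so. Of these, 10735 reached 1 in both libraries, 119 in MT alone and 162 in EV alone. Emphasis was placed on the 6562 genes that reached 10, of which 6165 did so in both libraries, 191 in MT alone and 206 in EV alone. RNA-seq and Ribo-seq, which sequences the mRNA fragments that ribosomes protect, were each done on 1 library per label, so the series holds 6 libraries labelled MT, WT and EV. The 786-O line was derived from a human clear cell carcinoma of the kidney and has no working VHL, the ubiquitin ligase subunit that targets hypoxia-inducible factors. The series title gives PHYHD1 without the segment 107 to 130 for MT and unaltered PHYHD1 for WT, whereas the design text calls MT an overexpression of PHYHD1 and WT an untreated group. All libraries come from the same parental line, and the vector, its promoter, any tag and whether each label is a pool or a clone are nowhere stated in the labels. The design text names 3 culture dishes per condition, and whether they were pooled is not given.

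PHYHD1 belongs to the iron- and 2-oxoglutarate-dependent dioxygenases, enzymes that use oxygen and 2-oxoglutarate to oxidise their substrates. Several pathways of a VHL-deficient kidney cancer cell are read in the mRNA of their target genes. Without VHL, hypoxia-inducible factors are not degraded and keep glycolytic and angiogenic genes on. When amino acids run short or misfolded proteins accumulate, kinases phosphorylate eIF2alpha and the transcription factor ATF4 induces genes for serine and asparagine synthesis, amino acid transport and tRNA charging. Interferon receptors signal through transcription factors of the STAT and IRF families to promoters of antiviral genes.

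With 1 library per label, no difference has a replicate check, p-values are not used, and each value compares 2 libraries, not conditions. A difference is the log2 ratio of MT over EV after 1 was added to both values, which understates the change of genes with low values. Values were read as FPKM, fragments scaled by transcript length and library size. The median difference was -0.01 over all genes measured and 0.00 over genes at 10 FPKM or more in values already scaled to library size, which holds such medians near 0. The spread narrowed with level, from a robust SD of 0.23 among genes at 1 to 10 FPKM to 0.15 at 10 to 100 FPKM and 0.11 at 100 FPKM or more. Values within 10% of each other were held by 57.7% of all genes and by 76.0% of those at 100 FPKM or more. No read totals are known, so the relative depth of the 2 libraries was not determined. Markers of the line were present in both libraries. The kidney lineage factor PAX8 stood at 94.0 FPKM in MT and 88.5 FPKM in EV, vimentin (VIM) at 1751 and 1746 FPKM, and the HIF target CA9 was listed at 0 in both. The endothelial markers PECAM1, CDH5 and VWF and the liver markers ALB and APOA1 were listed at 0 in both libraries. Of blood markers, CD3E was listed at 0 in both, PTPRC held 0.018 FPKM in MT and 0 in EV, CSF1R 0.017 FPKM in MT and 0.334 FPKM in EV, and CD68, a lysosomal protein that is not limited to macrophages, 6.19 FPKM in MT and 5.47 FPKM in EV. Of fibroblast markers, DCN was listed at 0 in both, LUM held 0.484 FPKM in MT and 0.408 FPKM in EV, and PDGFRB 0.227 FPKM in MT and 0.783 FPKM in EV.

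A difference of at least 2-fold on this scale was held by 13 genes that were higher in MT (0.118% of genes measured) and 19 that were lower (0.172%). At 1.5-fold there were 91 higher (0.826%) and 164 lower (1.49%). Among genes at 10 FPKM or more the 2-fold count was 5 higher (0.0762%) and 4 lower (0.061%), and the 1.5-fold count was 18 higher (0.274%) and 36 lower (0.549%). Most of the genes past either size were thus at 1 to 10 FPKM, where 23 of 32 genes past 2-fold and 201 of 255 past 1.5-fold lay. Both sizes are rules of description and not tests.

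**Figure D1:**
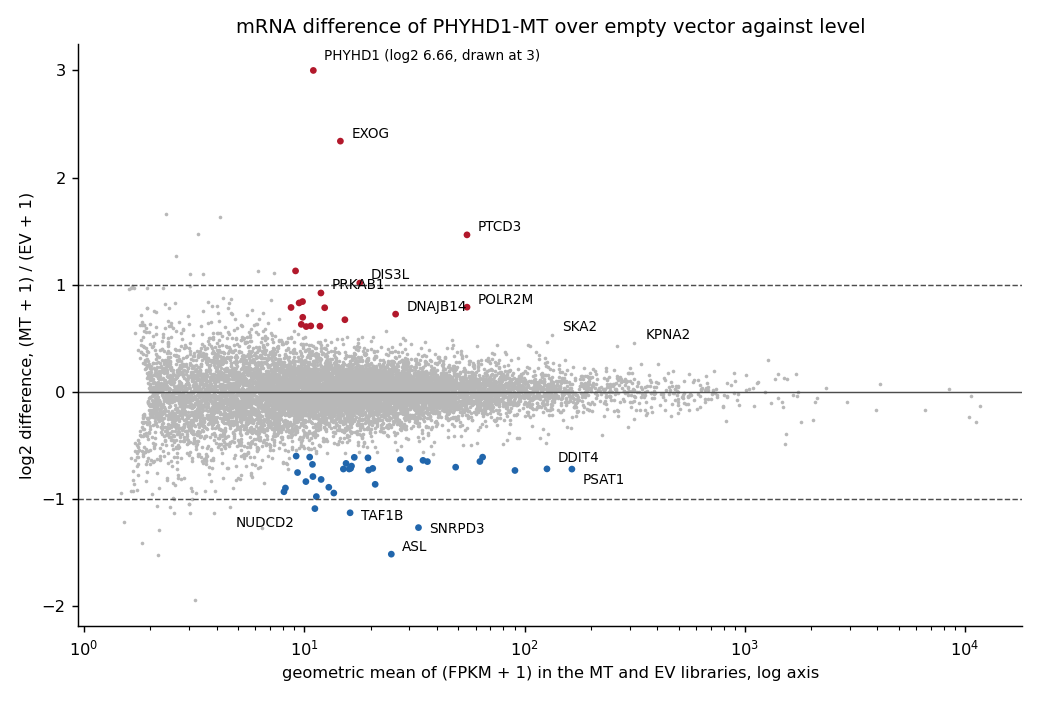
Each point is a gene, placed by the geometric mean of its FPKM + 1 in the MT and EV libraries (log axis) and by its log2 difference of MT over EV. Red and blue points are the 18 higher and 36 lower genes past 1.5-fold at 10 FPKM or more, the dashed lines mark 2-fold, and PHYHD1 (log2 of 6.66) is drawn at 3. The cloud narrows toward high levels, and few genes leave it.

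PHYHD1 itself (ENSG00000175287.19) checked the labels. It stood at 109.5 FPKM in MT, against 0.092 FPKM in EV, with no meaningful fold against a value so near 0. The library labelled WT held 118 FPKM, far above EV, which matches the series title and not an untreated group. PHYHD1 was the only gene past 2-fold at 100 FPKM or more. Values per gene do not show the deleted segment.

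The highest genes after PHYHD1 at 10 FPKM or more both encode mitochondrial proteins. EXOG (ENSG00000157036.13), a nuclease of the mitochondrial inner membrane, stood at 31.8 FPKM in MT, against 5.48 FPKM in EV, a log2 difference of 2.34. PTCD3 (ENSG00000132300.19), a pentatricopeptide protein of the small mitochondrial ribosomal subunit, stood at 90.0 FPKM in MT, against 31.9 FPKM in EV (1.47). In WT they stood at 37.4 and 113 FPKM, so for both genes EV was the library apart. The related PTCD2, which acts in mitochondrial mRNA processing, held 4.39 FPKM in MT, against 2.55 FPKM in EV (0.60). The list of mitochondrial transcription and RNA processing genes, which holds EXOG, PTCD3 and PTCD2, was otherwise balanced. It had 24 of 45 members above 0, a median of 0.01 and these 3 past 1.5-fold, against 0.826% higher over all genes. C15orf40 stood at 12.5 FPKM in MT, against 5.17 FPKM in EV (1.13), and since it overlaps RAMAC its value is uncertain.

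A second set of higher genes had WT values close to EV, so that MT was the library apart. DIS3L (ENSG00000166938.13), the nuclease of the cytoplasmic RNA exosome, stood at 24.4 FPKM in MT, against 11.6 FPKM in EV (1.02), with 13.8 FPKM in WT. PRKAB1, the beta 1 subunit of the energy sensor AMPK, stood at 15.4 FPKM in MT, against 7.63 FPKM in EV (0.92), with 8.04 FPKM in WT. EXOSC4, a core subunit of the same exosome, held 11.6 FPKM in MT, against 6.10 FPKM in EV (0.83). POMT2, which adds O-linked mannose in the endoplasmic reticulum, held 12.1 FPKM in MT, against 6.33 FPKM in EV (0.84). POLR2M, a protein bound to RNA polymerase II, held 71.1 FPKM in MT, against 40.6 FPKM in EV (0.79), and overlaps GCOM1, which makes its value uncertain. CHD7, a chromatin remodeller, held 15.2 FPKM in MT, against 8.42 FPKM in EV (0.79). The WT values of EXOSC4, POMT2, POLR2M and CHD7 were 5.82, 6.36, 45.3 and 10.2 FPKM.

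The other genes at 10 FPKM or more past 1.5-fold upward lay between 0.61 and 0.79. LYRM2, a mitochondrial protein of the LYR family, stood at 10.4 FPKM in MT, against 5.62 FPKM in EV. The co-chaperone gene DNAJB14 stood at 32.4 FPKM in MT, against 19.2 FPKM in EV. HSPA1A, an inducible Hsp70, stood at 18.3 FPKM in MT, against 11.1 FPKM in EV, and its near-identical copy HSPA1B at 74.2 FPKM in MT, against 60.6 FPKM in EV. Reads may be split between these copies. The sphingosine 1-phosphate exporter SPNS2 (11.5 FPKM in MT and 6.72 FPKM in EV), the amino acid carrier SLC38A6 (11.1 and 6.79 FPKM), the fucose enzyme FPGT (12.2 and 7.64 FPKM), the tetrahydrobiopterin enzyme PTS (13.6 and 8.51 FPKM) and REX1BD (11.6 and 7.25 FPKM) completed the set. LYRM2 overlaps ANKRD6, SPNS2 overlaps MYBBP1A, SLC38A6 overlaps TRMT5 and FPGT shares reads with a readthrough name, so these values are uncertain too. RefSeq overlaps were looked up only for the 15 highest and 15 lowest genes of each level range. Of genes described below, MTHFD2 overlaps SLC4A5, YARS1 overlaps S100PBP and RSAD2 overlaps CMPK2. PSMC5 likewise overlaps FTSJ3, and ALYREF overlaps ANAPC11.

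Among the lower genes, ASL (ENSG00000126522.17), the argininosuccinate lyase that makes arginine, stood at 13.7 FPKM in MT, against 40.9 FPKM in EV, a difference of -1.51. SNRPD3 (ENSG00000100028.12), a core protein of spliceosomal particles, stood at 20.3 FPKM in MT, against 50.1 FPKM in EV (-1.26), and overlaps GUCD1. TAF1B (ENSG00000115750.17), a factor of RNA polymerase I initiation, stood at 9.92 FPKM in MT, against 22.8 FPKM in EV (-1.13). In WT these genes held 13.2, 21.6 and 10.8 FPKM, so EV was again the library apart. The same held for TRAPPC2L, a subunit of a vesicle tethering complex, with 14.6 FPKM in MT, against 27.3 FPKM in EV, and 15.2 FPKM in WT, and TRAPPC2L overlaps GALNS. SMPDL3A, a phosphodiesterase, had 10.7 FPKM in MT, against 18.3 FPKM in EV, and 8.64 FPKM in WT. For ASL the other urea cycle and arginine genes did not move alike. Of the 26 measured genes of arginine, urea cycle and polyamine metabolism 14 were above 0 and 12 below, with a median of 0.01, and ASL alone was past 1.5-fold. Ornithine decarboxylase, ODC1, the entry to polyamines, stood at 77.9 FPKM in MT, against 62.6 FPKM in EV (0.31).

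NUDCD2 was lower in MT alone, with 6.66 FPKM, against 15.3 FPKM in EV (-1.09) and 14.4 FPKM in WT, and it overlaps CCNG1. TGM2, the crosslinking enzyme transglutaminase 2, and NT5E, the ecto-nucleotidase CD73, placed MT and WT on opposite sides of EV. TGM2 stood at 7.09 FPKM in MT, against 14.9 FPKM in EV (-0.98), and at 19.9 FPKM in WT. NT5E stood at 8.49 FPKM in MT, against 16.6 FPKM in EV (-0.89), and at 25.5 FPKM in WT. The same order was held by NDUFA7, a complex I subunit (11.9 FPKM in MT, 19.8 FPKM in EV and 29.8 FPKM in WT), and LSM8, which binds U6 RNA (22.5, 37.5 and 52.8 FPKM).

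**Figure D2:**
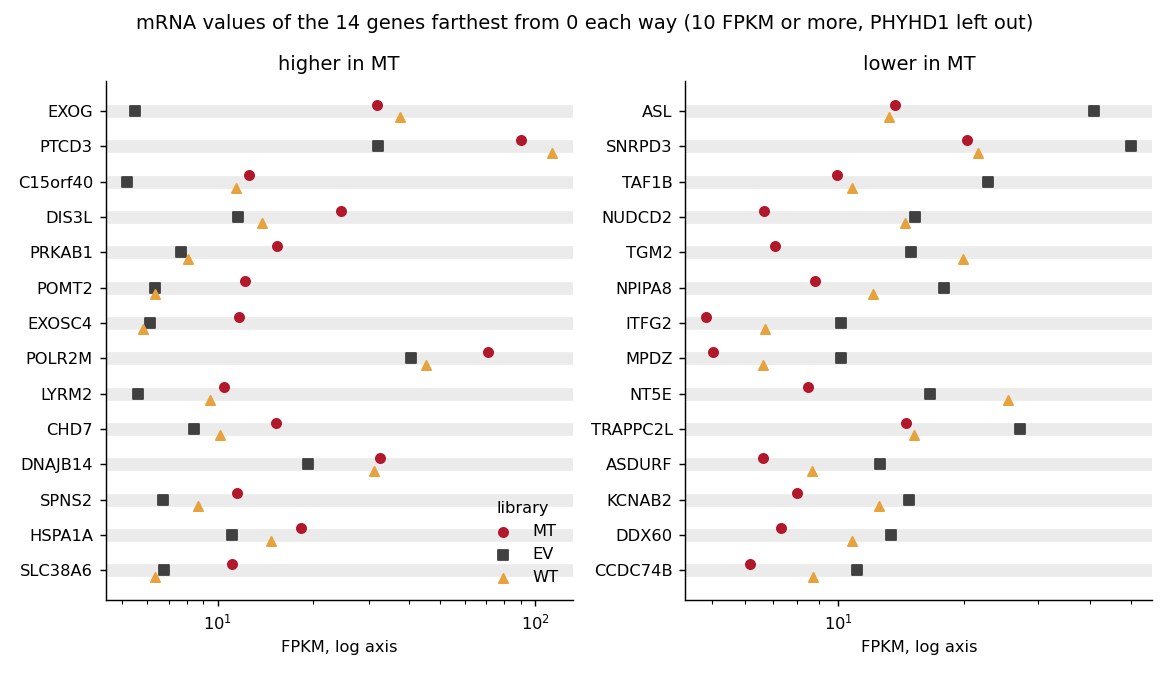
FPKM (log axis) of the 14 genes farthest from 0 in each direction among those at 10 FPKM or more, PHYHD1 left out, with 1 point per library. EXOG, PTCD3, ASL, SNRPD3 and TAF1B have MT and WT together and EV apart, whereas DIS3L, PRKAB1, POMT2, EXOSC4 and NUDCD2 have MT apart from EV and WT.

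The rest of the genes lower by 1.5-fold at 10 FPKM or more lay between -0.60 and -0.94. Signalling and scaffold genes among them were ITFG2, a subunit of the complex that relays amino acid shortage to mTORC1 (4.85 FPKM in MT and 10.2 FPKM in EV), the PDZ scaffold MPDZ (5.02 and 10.2 FPKM), the kinase MAP3K4 (11.3 and 18.5 FPKM), HERC1 (7.57 and 12.05 FPKM) and ANKIB1 (37.1 and 61.0 FPKM). Nuclear genes among them were HMGN5, which binds nucleosomes (14.2 FPKM in MT and 24.2 FPKM in EV), and the recombination factor SWI5 (14.7 and 23.1 FPKM). Metabolic genes were HSD17B12, of fatty acid elongation (11.5 FPKM in MT and 19.5 FPKM in EV), the ADP-ribose hydrolase NUDT9 (14.97 and 25.2 FPKM) and the potassium channel subunit KCNAB2 (7.99 and 14.8 FPKM). CCDC74B (6.18 and 11.1 FPKM) and KATNIP (6.46 and 10.3 FPKM) were lower as well. NPIPA8 (8.82 FPKM in MT and 17.9 FPKM in EV) belongs to a family of near-identical copies and ASDURF (6.61 and 12.6 FPKM) overlaps ASNSD1, so both are uncertain, as is ITFG2, which overlaps FOXM1. Most of the remaining lower genes are described with the stress response, interferon and lipid groups.

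Among genes at 100 FPKM or more, ERRFI1, DDIT4 and PSAT1 were the 3 past 1.5-fold downward. ERRFI1 (ENSG00000116285.13), a feedback inhibitor of the EGF receptor, stood at 69.2 FPKM in MT, against 116 FPKM in EV (-0.73), with 116 FPKM in WT. EGFR held 76.9 FPKM in MT and 78.7 FPKM in EV, and MET 96.6 and 104 FPKM. Of 42 measured immediate early and MAPK response genes 20 were above 0 and 22 below, and 3 were lower by 1.5-fold, KLF4, NR4A1 and NR4A2, all under 10 FPKM. Growth factor receptors and ligands likewise had 20 of 42 above 0, with IGFBP1 and PDGFB lower by 1.5-fold at 1 to 10 FPKM. For comparison, 1.49% of all genes measured, and 128 of the 4454 at 1 to 10 FPKM, were lower by 1.5-fold. FOSL1, an AP-1 subunit, stood at 59.6 FPKM in MT, against 47.1 FPKM in EV (0.33), and KLF4 at 1.83 FPKM in MT, against 3.50 FPKM in EV (-0.67).

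Targets of ATF4 and the integrated stress response were lower in MT, with 44 of 49 measured members below 0 and a median of -0.25. Over all genes measured 51.3% were below 0, with a median of -0.01. Among the 40 members at 10 FPKM or more 38 were below 0, and their summed value was 2807 FPKM in MT, against 3511 FPKM in EV. None of the members was past 2-fold and 5 were past 1.5-fold, all of them lower, against 1.49% lower by 1.5-fold over all genes. The lowest were GDF15, a secreted stress hormone with 1.56 FPKM in MT, against 3.86 FPKM in EV (-0.92), and, at higher levels, PSAT1 and DDIT4. PSAT1 (ENSG00000135069.14), the aminotransferase of serine synthesis, stood at 127 FPKM in MT, against 209 FPKM in EV (-0.72). CTH, which makes cysteine from cystathionine, stood at 7.62 FPKM in MT, against 12.8 FPKM in EV (-0.67), and CBS, the enzyme before it, at 13.6 FPKM in MT, against 20.4 FPKM in EV (-0.56). The mitochondrial folate enzymes SHMT2 (70.4 FPKM in MT and 96.6 FPKM in EV) and MTHFD2 (144 and 182 FPKM) were lower by 0.45 and 0.34 on the log2 scale. DDIT4, an inhibitor of mTORC1 that stress and hypoxia both induce, stood at 97.5 FPKM in MT, against 161 FPKM in EV (-0.72). PCK2, the mitochondrial PEP carboxykinase, stood at 12.6 FPKM in MT, against 19.8 FPKM in EV (-0.61).

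Asparagine synthetase, ASNS, stood at 43.3 FPKM in MT, against 61.5 FPKM in EV (-0.50), and is listed at 0 in all Ribo-seq columns. The amino acid exchanger SLC7A5 held 285 FPKM in MT, against 341 FPKM in EV (-0.25), its partner SLC3A2 151 FPKM in MT, against 177 FPKM in EV (-0.23), and the cystine carrier SLC7A11 21.4 FPKM in MT, against 28.5 FPKM in EV (-0.40). The mRNA of ATF4 itself stood at 157 FPKM in MT, against 183 FPKM in EV (-0.23). WT values of ATF4 targets differed in place. PSAT1 (193 FPKM) and ASNS (54.6 FPKM) lay between MT and EV in WT, nearer EV. SLC7A5 (364 FPKM) and ATF4 itself (188 FPKM) lay above EV. PCK2 (14.1 FPKM) and GDF15 (2.20 FPKM) lay nearer MT, and DDIT4 (128 FPKM) lay between MT and EV. WT was not summarised over the ATF4 list. Of the 27 measured serine, glycine and one-carbon enzymes 16 were below 0, with a median of -0.02. By 1.5-fold 3 were lower, PSAT1, CTH and MTHFD2L, against 1.49% over all genes. PSAT1 and CTH are counted among the ATF4 targets as well. Thymidylate synthase, TYMS, held 159 FPKM in both libraries.

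Cytosolic aminoacyl-tRNA synthetases, which charge tRNAs with amino acids and are partly ATF4 targets, had 18 of 24 members below 0 and a median of -0.14. WARS1 stood at 47.0 FPKM in MT, against 66.8 FPKM in EV (-0.50), and AARS1 at 66.1 FPKM in MT, against 93.0 FPKM in EV (-0.49). SARS1, YARS1, GARS1, EPRS1 and NARS1 were lower by 0.34 to 0.43 on the log2 scale. On the other side were 6 of the 24 members, with MARS1 the highest at 0.24. AARS1, NARS1 and MARS1 are also among the members of the ATF4 list, so the lists overlap and are not separate results. The mitochondrial synthetases, which have a separate set of genes, had 10 of 17 members above 0 and a median of 0.06. The exporter of charged tRNA, XPOT, stood at 54.7 FPKM in MT, against 69.0 FPKM in EV (-0.33). EIF4EBP1, the cap-binding inhibitor that ATF4 also induces, stood at 37.7 FPKM in MT, against 50.9 FPKM in EV (-0.42). Genes of endoplasmic reticulum folding had 39 of 56 members below 0 but a median of only -0.03, and none was past 1.5-fold. HSP90B1 held 378 FPKM in MT and 393 FPKM in EV.

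The promoter windows of ATF4 targets were searched for the letters of the composite C/EBP-ATF element, TGATGNAA, on both strands, because that element is where ATF4 binds such genes. RefSeq windows of 300 bases around the gene start (GRCh38.p14) were found for 41 of the 49 members. The element was present in 11 of them (26.8%), against 3.67% of all 27305 windows. The 11 genes with it had a median difference of -0.23, and the 30 without it -0.24. The windows of ASNS (chr7:97872359-97872658, minus strand) and AARS1 (chr16:70289457-70289756, minus strand) are shown because both genes were lower by about 0.5 on the log2 scale and hold the element, whose letters are in capitals.
ASNS: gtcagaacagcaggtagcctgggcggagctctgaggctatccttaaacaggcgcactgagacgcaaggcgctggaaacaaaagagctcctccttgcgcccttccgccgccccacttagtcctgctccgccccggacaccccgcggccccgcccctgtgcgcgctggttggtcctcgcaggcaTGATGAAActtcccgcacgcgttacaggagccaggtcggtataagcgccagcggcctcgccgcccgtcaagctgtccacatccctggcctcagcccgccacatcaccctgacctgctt
AARS1: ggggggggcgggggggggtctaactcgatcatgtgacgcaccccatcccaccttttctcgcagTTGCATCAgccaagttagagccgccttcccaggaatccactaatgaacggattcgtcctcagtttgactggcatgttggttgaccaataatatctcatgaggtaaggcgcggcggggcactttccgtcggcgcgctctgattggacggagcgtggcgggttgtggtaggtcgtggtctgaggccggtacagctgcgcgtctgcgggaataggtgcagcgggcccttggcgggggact

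Interferon-stimulated genes were lower, with a median of -0.29, the lowest of the 84 lists described, and 52 of 60 measured members below 0. At 10 FPKM or more 28 of 33 were below 0, with a median of -0.22. Lower by 1.5-fold were 12 members and by 2-fold 2, and none was higher by either size. Over all genes measured 51.3% were below 0, 1.49% were lower by 1.5-fold and 0.172% by 2-fold. Of the 12 members, 4 were at 10 FPKM or more. Among all 4454 genes at 1 to 10 FPKM, 128 were lower by 1.5-fold. Of the 60 genes, 5 reached 1 FPKM in EV alone and none in MT alone. Some abundant members were near 0 or above it. LGALS3BP, a secreted glycoprotein, stood at 204 FPKM in MT, against 185 FPKM in EV (0.14), and APOL1 at 197 FPKM in MT, against 214 FPKM in EV (-0.11). The members lower by 1.5-fold at 10 FPKM or more were antiviral effectors. ISG15, a ubiquitin-like modifier, stood at 27.9 FPKM in MT, against 44.4 FPKM in EV (-0.65). IFIT3 and IFIT2, which bind viral RNA with their partners, stood at 26.7 FPKM in MT, against 42.1 FPKM in EV (-0.64), and at 11.7 FPKM in MT, against 19.8 FPKM in EV (-0.71). DDX60, a helicase, stood at 7.32 FPKM in MT, against 13.4 FPKM in EV (-0.79). BST2, which tethers budding virions, stood at 138 FPKM in MT, against 173 FPKM in EV (-0.32). At lower levels were RSAD2 (1.62 FPKM in MT and 4.72 FPKM in EV), OASL (2.85 and 5.77 FPKM) and UBE2L6, the conjugating enzyme of ISG15 (3.84 and 6.92 FPKM). WT values of members differed in place. DDX60 (10.8 FPKM) and BST2 (148 FPKM) lay between MT and EV in WT, and RSAD2 (4.53 FPKM) lay near EV. EPSTI1 held 0.125 FPKM in MT, 1.99 FPKM in EV and 0.414 FPKM in WT, so EV was apart. WT was not summarised over the list.

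Of 23 measured interferon receptors, sensors and signalling genes 10 were above 0 and 13 below, with a median of -0.10, and none was past 1.5-fold. The 13 of them at 10 FPKM or more had 6 below 0 and a median of 0.01. STING1, the adaptor of cytosolic DNA sensing, stood at 8.93 FPKM in MT, against 13.1 FPKM in EV (-0.51), and TYK2 at 18.7 FPKM in MT, against 24.3 FPKM in EV (-0.36). HLA class I and peptide loading genes had 12 of 16 members below 0 and a median of -0.12. B2M, the light chain of class I, stood at 901 FPKM in MT, against 979 FPKM in EV (-0.12), HLA-B at 96.8 FPKM in MT, against 114 FPKM in EV (-0.23), and HLA-E, at 36.7 FPKM in MT, against 31.05 FPKM in EV (0.23), was on the other side. HLA genes resemble one another, so reads may be split among them. NF-kappaB and inflammatory genes had 20 of 27 members below 0 and a median of -0.09. TNFSF10, the death ligand TRAIL, stood at 51.2 FPKM in MT, against 78.6 FPKM in EV (-0.61), and the cytokine LIF at 12.3 FPKM in MT, against 17.4 FPKM in EV (-0.47).

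The interferon response element, where interferon-activated factors bind, was searched as the letters GAAA, any 2 bases and GAAA again, on both strands, in the same kind of windows. Windows were found for 47 of the 60 members, and 27 of them (57.4%) held the element, against 3.65% of all windows. The 27 genes with it had a median difference of -0.30 and 22 below 0, and the 20 without it -0.27 and 19 below 0. The windows of ISG15 (chr1:1013247-1013546, plus strand), DDX60 (chr4:168318703-168319002, minus strand) and IFIT3 (chr10:89327747-89328046, plus strand) are shown because these members at 10 FPKM or more hold 2 copies and were lower by over 1.5-fold. The element is in capitals.
ISG15: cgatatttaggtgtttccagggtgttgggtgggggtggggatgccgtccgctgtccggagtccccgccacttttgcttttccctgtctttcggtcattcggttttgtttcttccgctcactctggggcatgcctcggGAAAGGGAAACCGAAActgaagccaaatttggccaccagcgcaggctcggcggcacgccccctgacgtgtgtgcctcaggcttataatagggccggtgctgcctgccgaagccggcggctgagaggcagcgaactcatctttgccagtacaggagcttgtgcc
DDX60: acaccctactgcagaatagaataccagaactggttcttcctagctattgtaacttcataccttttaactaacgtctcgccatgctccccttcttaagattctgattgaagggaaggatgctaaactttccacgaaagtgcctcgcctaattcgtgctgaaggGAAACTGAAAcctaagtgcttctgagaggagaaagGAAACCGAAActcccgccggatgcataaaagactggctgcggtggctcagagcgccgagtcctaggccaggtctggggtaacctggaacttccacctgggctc
IFIT3: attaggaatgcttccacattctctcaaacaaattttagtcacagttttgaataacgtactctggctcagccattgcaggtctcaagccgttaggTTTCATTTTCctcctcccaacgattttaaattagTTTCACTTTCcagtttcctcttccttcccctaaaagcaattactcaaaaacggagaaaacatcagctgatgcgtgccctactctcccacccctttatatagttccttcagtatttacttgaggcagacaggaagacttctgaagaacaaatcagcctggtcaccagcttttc

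Hypoxia-inducible factor targets had 35 of 49 members below 0 and a median of -0.11. Among the members lower by 1.5-fold were DDIT4 and the aldolase ALDOC, whose values were 0.486 FPKM in MT and 1.49 FPKM in EV (-0.75). PLIN2, a lipid droplet coat protein, stood at 30.4 FPKM in MT, against 45.8 FPKM in EV (-0.57), the vasodilator peptide gene ADM at 16.4 FPKM in MT, against 22.8 FPKM in EV (-0.46), NDRG1 at 99.8 FPKM in MT, against 134.9 FPKM in EV (-0.43), and VEGFA at 46.5 FPKM in MT, against 59.6 FPKM in EV (-0.35). The abundant glycolytic mRNAs were close in both libraries. LDHA stood at 1231 FPKM in MT and 1228 FPKM in EV, ALDOA at 702 and 709 FPKM, and ENO1 at 1573 and 1441 FPKM. The glycolysis and pentose phosphate list had a median of -0.00, with 18 of 39 members above 0. EPAS1, which encodes the HIF-2alpha that drives this line, stood at 12.1 FPKM in MT, against 16.6 FPKM in EV (-0.43), and CCND1, a cyclin and HIF-2alpha target in kidney cancer, at 53.6 FPKM in MT, against 68.8 FPKM in EV (-0.35). The 14 measured genes of the hypoxia-inducible factor pathway itself were split evenly, 7 above 0 and 7 below, with a median of -0.01. The oxygen sensors EGLN3 (10.8 FPKM in MT and 13.9 FPKM in EV) and HIF1AN (13.1 and 17.2 FPKM) were lower by 0.34 and 0.37 on the log2 scale, and EGLN2 was higher, at 13.4 FPKM in MT, against 11.1 FPKM in EV (0.25).

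The list of fatty acid and phospholipid synthesis genes was balanced, with 31 above 0 and 35 below, a median of -0.03 and none past 1.5-fold. That list leaves out SREBF1 and HSD17B12, which were both lower by 1.5-fold. SREBF1, the regulator of fatty acid synthesis, stood at 20.9 FPKM in MT, against 33.0 FPKM in EV (-0.63), and its target SCD, the stearoyl-CoA desaturase, at 106 FPKM in MT, against 147 FPKM in EV (-0.48). ACLY, which supplies cytosolic acetyl-CoA, was on the other side at 167 FPKM in MT, against 136 FPKM in EV (0.30). The cholesterol synthesis list, which holds SREBF1, had 19 of 34 members below 0 and a median of -0.03. By 1.5-fold 1 member was higher and 1, SREBF1, was lower. SQLE, squalene epoxidase, held 50.6 FPKM in MT and 49.8 FPKM in EV.

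Mitochondrially encoded mRNAs were lower in MT for 11 of 13 genes, with a median of -0.23, and they made up 15.4% of the MT column sum, against 16.8% in EV. MT-ATP8 stood at 1284 FPKM in MT, against 1796 FPKM in EV (-0.48), MT-ND4L at 1345 FPKM in MT, against 1769.8 FPKM in EV (-0.40), and MT-CO2 at 10219 FPKM in MT, against 12400.4 FPKM in EV (-0.28). MT-ND1 (4241 FPKM in MT and 4016 FPKM in EV) and MT-ND2 (8522 and 8359 FPKM) were the 2 above 0. MT-ATP8 overlaps MT-ATP6 and MT-ND4L overlaps MT-ND4 on shared transcripts, so reads may be divided between them. The WT column held 15.1%. Nuclear-encoded respiratory chain subunits were balanced, with 39 of 79 above 0 and a median of -0.00, and NDUFA7 alone was past 1.5-fold. The list of mitochondrial ribosomal proteins, which leaves out PTCD3, had 42 of 79 above 0 and a median of 0.01. No member of that list was past 1.5-fold.

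Genes of the G2 and M phases were higher by small amounts, with 70 of 90 members above 0, a median of 0.08 and no member past 1.5-fold. SKA2 (ENSG00000182628.13), of the kinetochore complex that holds microtubules, stood at 158 FPKM in MT, against 109 FPKM in EV (0.53), and was the highest gene after PHYHD1 at 100 FPKM or more. Separase, ESPL1, stood at 19.2 FPKM in MT, against 13.97 FPKM in EV (0.43), and the kinesin KIF23 at 95.003 FPKM in MT, against 77.1 FPKM in EV (0.30). KPNA2, a nuclear import receptor, stood at 368 FPKM in MT, against 268 FPKM in EV (0.46). S phase genes lay on the other side, with 47 of 77 below 0 and a median of -0.05. PRIM1, the primase subunit, stood at 14.8 FPKM in MT, against 20.9 FPKM in EV (-0.47), MCM5, of the replicative helicase, at 23.7 FPKM in MT, against 30.2 FPKM in EV (-0.34), and the sliding clamp PCNA at 118 FPKM in MT, against 133 FPKM in EV (-0.17). The p53 targets had 25 of 41 members below 0. CDKN1A, the inhibitor p21, stood at 34.2 FPKM in MT, against 38.1 FPKM in EV (-0.15).

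Proteasome subunits had 35 of 55 members above 0 and a median of 0.05. PSME2, an interferon-inducible activator subunit, stood at 54.2 FPKM in MT, against 38.4 FPKM in EV (0.49), whereas its partner PSME1 stood at 43.5 FPKM in MT, against 58.1 FPKM in EV (-0.41). The regulatory subunits PSMC5 (127 FPKM in MT and 97.7 FPKM in EV) and PSMD3 (137 and 109.7 FPKM) were higher by 0.37 and 0.32 on the log2 scale, and PSMD5, an assembly chaperone, was lower, with 32.0 FPKM in MT, against 44.7 FPKM in EV (-0.47). Cytosolic heat shock genes had 38 of 53 above 0 and a median of 0.06, and HSPA8, the constitutive Hsp70, stood at 777 FPKM in MT, against 676 FPKM in EV (0.20). Ribosome biogenesis genes had 61 of 91 above 0 and a median of 0.05. The nucleolar scaffold NPM1 held 1049 FPKM in MT and 1029.5 FPKM in EV. Large subunit ribosomal proteins were slightly lower, with 33 of 50 below 0 and a median of -0.05, and small subunit proteins likewise, with 23 of 35 below 0 and a median of -0.03.

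**Figure D3:**
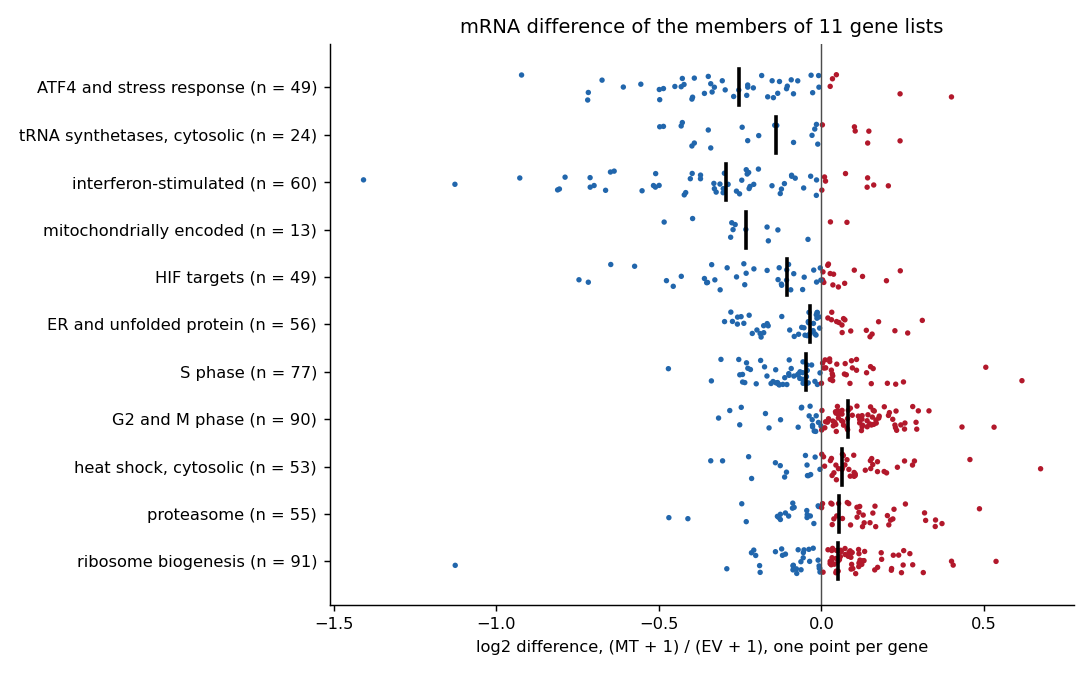
Log2 difference of MT over EV for each measured member of 11 gene lists, with 1 point per gene (blue below 0, red above) and a black bar at the list's median. ATF4 targets, interferon-stimulated genes and mitochondrially encoded mRNAs have medians of -0.25, -0.29 and -0.23, and G2 and M phase genes have 70 of 90 members above 0.

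YAP and TGF-beta pathway genes were balanced, with 28 of 53 above 0 and a median of 0.01, and none was past 1.5-fold. The members with the largest differences upward were ID1 and ID3, inhibitors of basic helix-loop-helix factors, which stood at 303 FPKM in MT, against 225 FPKM in EV (0.43), and at 122 FPKM in MT, against 90.6 FPKM in EV (0.43). SMAD6, an inhibitory SMAD, stood at 3.05 FPKM in MT, against 2.17 FPKM in EV (0.35), and SMAD5 at 23.4 FPKM in MT, against 18.9 FPKM in EV (0.30). The YAP target CCN1 stood at 92.3 FPKM in MT, against 108 FPKM in EV (-0.23). Matrix genes had 35 of 62 above 0 and a median of 0.01. Fibronectin, FN1, held 371 FPKM in MT and 374 FPKM in EV (255 FPKM in WT), and the basement membrane chain COL4A1 209 FPKM in MT and 185 FPKM in EV (0.18). Integrins had 10 of 15 below 0. Both abundant actins were higher, ACTB at 1815 FPKM in MT, against 1619 FPKM in EV (0.16), and ACTG1 at 1419.7 FPKM in MT, against 1151 FPKM in EV (0.30).

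Renal epithelial lineage genes had 15 of 23 members above 0 and a median of 0.09. The brush border peptidase GGT1 stood at 86.2 FPKM in MT, against 63.3 FPKM in EV (0.44), the scaffold PDZK1 at 131 FPKM in MT, against 103 FPKM in EV (0.34), cadherin 6 (CDH6) at 75.6 FPKM in MT, against 61.5 FPKM in EV (0.29), and HAVCR1, the kidney injury marker, at 123.4 FPKM in MT, against 106 FPKM in EV (0.22). The WT values of CDH6 and PDZK1, 40.03 and 76.9 FPKM, lay below EV. Renal carcinoma driver genes were balanced, with 16 of 31 above 0, and PBRM1, a chromatin subunit often mutated in such tumours, stood at 20.6 FPKM in MT, against 15.9 FPKM in EV (0.35).

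Genes at 1 to 10 FPKM, where the spread of differences was widest, held the largest differences after PHYHD1 and EXOG. LIPH, a phospholipase, stood at 0.631 FPKM in MT, against 5.25 FPKM in EV (-1.94), with 0.565 FPKM in WT. GRAMD4 stood at 3.16 FPKM in MT, against 9.02 FPKM in EV (-1.27), and GALT, of galactose breakdown, at 1.18 FPKM in MT, against 3.37 FPKM in EV (-1.002). Higher were BCL2L15, of the BCL2 family (3.19 FPKM in MT and 0.326 FPKM in EV, 1.66), AJAP1, which binds adherens junctions (6.31 and 1.35 FPKM, 1.64), TP53I3, a p53 target that overlaps FAM228B (3.06 and 0.687 FPKM, 1.27), ASTE1 (8.07 and 3.15 FPKM, 1.13), which overlaps ATP2C1, and CBR3, a carbonyl reductase (4.08 and 1.36 FPKM, 1.105). Of 43 names for readthrough transcripts of 2 neighbouring genes, 5 were past 2-fold, 1 higher and 4 lower. They include IFNAR2-IL10RB (0.277 FPKM in MT and 2.66 FPKM in EV) and PEDS1-UBE2V1 (0.408 and 2.43 FPKM), and they share reads with their parent genes. For all genes measured the 2-fold shares were 0.118% higher and 0.172% lower.

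Grouped by chromosome, the small differences were uneven. This grouping was chosen after values were seen, and chromosomes were taken from RefSeq (GRCh38.p14) for 6519 of the genes at 10 FPKM or more. Chromosome 17 had 301 of 392 such genes above 0 (76.8%) and a median of 0.10, against 50.6% and 0.00 for all genes at that level. It was the highest of the 23 chromosomes compared, followed by chromosome 15 (median 0.06, 68.0% of 222 genes above 0) and chromosome 19 (0.04, 62.7% of 362). Chromosomes 16 (-0.05, 37.2% of 309) and 9 (-0.05, 34.4% of 285) were the lowest. The excess on chromosome 17 ran along most of it. Cut into 16 consecutive windows of up to 25 genes, 14 windows had a median above 0, and the highest, USP36 to ANAPC11, had a median of 0.25 with 23 of 25 genes above 0. In these windows 2 genes were past 1.5-fold, SPNS2 upward and SREBF1 downward, so the excess was made of many small differences.

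Of the 15 highest genes at 100 FPKM or more, 9 were on chromosome 17 (SKA2, JPT1, KPNA2, PSMC5, PSMD3, ARHGDIA, ACTG1, ACLY and ALYREF), whereas it holds 6.93% of genes at that level and none of the 15 lowest. In the WT library, which was compared with the same EV library, chromosome 17 had a median of 0.08 and chromosome 15 one of -0.03. In Ribo-seq, where the libraries are separate, the chromosome 17 genes had a median of 0.05 with 60.2% above 0, against 0.01 and 52.1% for all genes at that level. Chromosomes 15 and 19 had Ribo-seq medians of 0.03 and -0.03. Chromosome 21, with 64 genes at that level, lay above chromosome 17 in both, with medians of 0.13 in WT mRNA and 0.10 in Ribo-seq. Among genes at 1 to 10 FPKM chromosome 17 had a median of 0.01, against -0.02 for all, and chromosome 15 had the highest, 0.03. Copy number and base composition were not tested. All 8 proteasome genes on chromosome 17 were above 0, with a median of 0.24, and without them the list's median was 0.03 with 27 of 47 above 0. The G2 and M phase list kept a median of 0.08 without its 6 chromosome 17 genes.

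**Figure D4:**
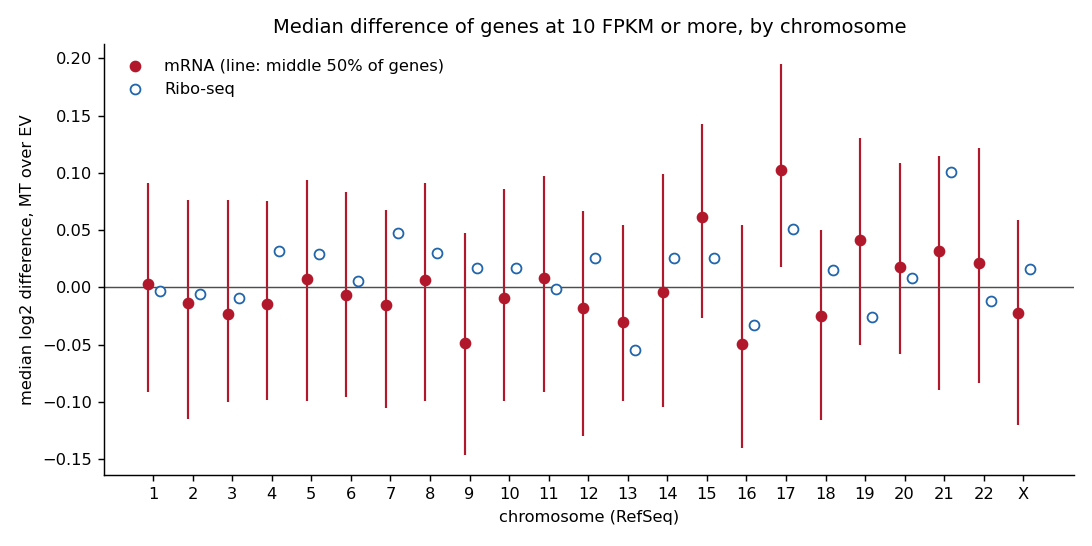
Median log2 difference of MT over EV by chromosome for genes at 10 FPKM or more, with mRNA as filled points (the line spans the middle 50% of genes) and Ribo-seq as open points. Chromosome 17 has the highest mRNA median, 0.10, and chromosomes 9 and 16 the lowest, -0.05 each.

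The same genes were then looked up in the Ribo-seq libraries of MT and EV. Of the 18 genes higher by 1.5-fold at 10 FPKM or more, 9 were also above 0 in Ribo-seq, 1 of them, PHYHD1, past 1.5-fold, and the median was -0.01. Of the 36 lower genes 35 were measured in Ribo-seq, 13 were below 0, 1 of them, ASDURF, past 1.5-fold, and the median was 0.05. Past 1.5-fold in the direction opposite to mRNA were TGM2 (24.9 TPM in MT and 15.5 TPM in EV), CHD7 (9.17 and 15.6 TPM) and SPNS2 (1.60 and 3.60 TPM). Over all genes at 10 TPM or more in Ribo-seq, 3.59% were higher and 2.08% lower by 1.5-fold. Over all genes at 10 FPKM or more 52.1% were above 0 in Ribo-seq. PTCD3 stood at 25.7 TPM in MT and 27.0 TPM in EV, EXOG at 4.77 and 6.88 TPM, SNRPD3 at 203 and 200.4 TPM, and ASL at 34.9 and 33.3 TPM. In none of these 4 genes was there a Ribo-seq difference of the same size and direction as in mRNA. The same was seen for PSAT1 (211 TPM in MT and 222 TPM in EV) and for ISG15 (167 and 192 TPM), both below 0 by less than in mRNA. ATF4 targets had 27 of 48 members below 0 in Ribo-seq with a median of -0.03, interferon-stimulated genes 37 of 58 with -0.06, and G2 and M phase genes 51 of 90 above 0 with 0.03. Mitochondrially encoded mRNAs, lower in the mRNA libraries, had 9 of 13 members above 0 in Ribo-seq with a median of 0.14. MT-ATP8 stood at 21537 TPM in MT, against 11621 TPM in EV (0.89), opposite to its mRNA. ASTE1 went the same way in both assays, with 36.3 TPM in MT, against 9.46 TPM in EV, but it overlaps ATP2C1 and is uncertain.

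**Figure D5:**
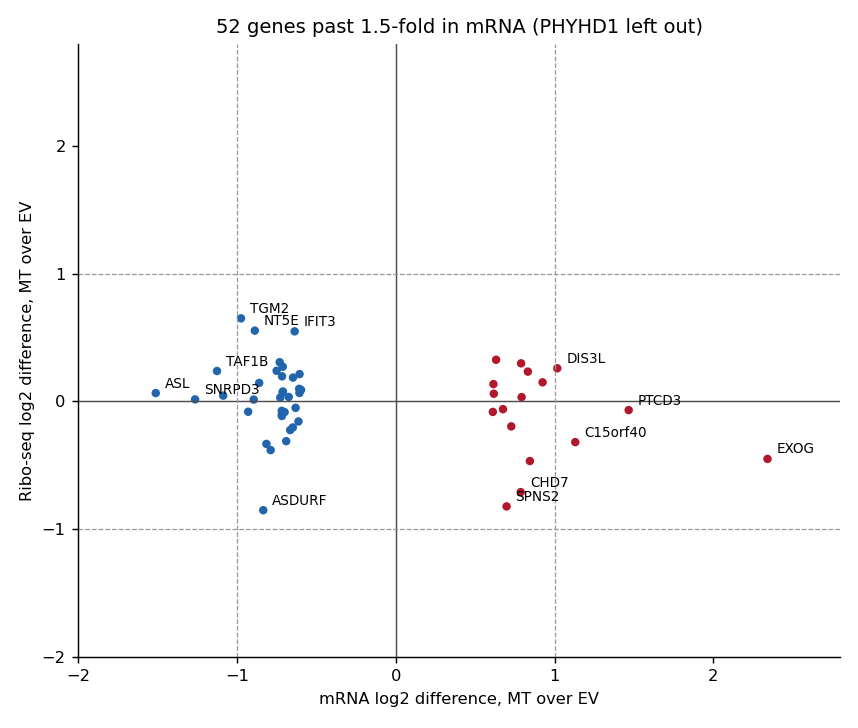
mRNA and Ribo-seq log2 differences of MT over EV for 52 genes past 1.5-fold in mRNA at 10 FPKM or more and measured in Ribo-seq, PHYHD1 left out. Red genes were higher and blue genes lower in MT mRNA, and dashed lines mark 2-fold. Most points lie near 0 on the Ribo-seq axis, PTCD3, ASL and SNRPD3 among them, whereas EXOG lies at -0.45, opposite to its mRNA.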

How the data were processed

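Whole-cell mRNA and ribosome footprints of 786-O cells were sequenced in 1 library per label and assay. The authors deposited both assays in 1 table. The RNA-seq header names no unit, and the deposited values were read as FPKM because column sums differ between libraries and low values are spaced by a step particular to each gene. The Ribo-seq values the authors deposited were read as TPM, since each column has the same total. The genome build is hg18, per the submitters' processing notes, and the labels name no aligner or counting settings. Read depth is unknown, so no counting interval is given. Rows without a gene name (605) and 7 symbols with several differing rows were left out. Differences, medians and counts were computed with Python 3.11.15, pandas 2.3.3 and numpy 2.4.6 and tested on simulated data. A pseudocount of 1 was used throughout, and no test was run. The members and gene lists were chosen with earlier results of these data known. Named were the 15 highest and 15 lowest genes in each of 3 level ranges, and from each list the largest differences (up to 8), the most abundant members (up to 4) and members past 1.5-fold at 10 FPKM or more. The other genes named with values at 10 FPKM or more past 1.5-fold (PTS, REX1BD, MAP3K4, HERC1, ANKIB1, SWI5, HSD17B12, NUDT9 and KATNIP) lie outside that rule and were chosen after their values were seen. Promoter sequences are from RefSeq. Alternatives varied the pseudocount, the minimum and the scaling. Results of some genes are not reported here.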

Additional observations from a re-analysis of the deposited data

How the results depend on the processing

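Counts past a fixed fold depended on the pseudocount and the scale. The 13 genes higher by 2-fold became 52 with a pseudocount of 0.1, 24 with 0.5, 5 with a minimum of 10, 49 with columns scaled to the same total over named genes and 53 over nuclear genes. The 19 lower genes became 93, 44, 4, 62 and 88 in the same order. The 91 genes higher by 1.5-fold became 190 with a pseudocount of 0.1, 18 with a minimum of 10, 201 scaled over named genes and 209 over nuclear genes, and the 164 lower became 326, 36, 297 and 373. That scaling enlarges the values, so that the pseudocount weighs less and more genes reach the minimum (11642 and 11786). The share of each was not tested. Of 14 list medians examined, none changed sign. The median of antigen presentation moved to -0.0656 with a minimum of 10, and that of the proteasome to 0.0326 without chromosome 17, an alternative chosen after seeing the data. ATF4 targets ranged from -0.30 to -0.25 and interferon-stimulated genes from -0.34 to -0.22. Of 432 values of 54 named genes under the alternatives, 423 stayed on the same side of 2-fold, and 9, of ITFG2, MPDZ, NPIPA8, PRKAB1 and TGM2, crossed it outward. No paired analysis was possible because each label has 1 library per assay.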

Other observations

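ABC transporters, which export lipids, drugs and metabolites, had 19 of 27 measured members above 0 and a median of 0.09. The peroxisomal importer ABCD3 stood at 47.8 FPKM in MT, against 40.6 FPKM in EV (0.23), whereas the cholesterol exporter ABCA1 stood at 18.9 FPKM in MT, against 24.9 FPKM in EV (-0.38). Zinc finger genes of the ZNF family, mostly expressed at low levels, had 241 of 419 measured members below 0 and a median of -0.04, with 12 lower and 3 higher by 1.5-fold. All 4454 genes at 1 to 10 FPKM had 54.1% below 0 and a median of -0.02, with 128 lower and 73 higher by 1.5-fold, so these shares were near those of other genes at such levels. Among the 53 of them at 10 FPKM or more 25 were below 0. ZNF320 stood at 5.58 FPKM in MT, against 9.50 FPKM in EV (-0.67), with 4.85 FPKM in WT.

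Immune surface genes had 22 of 36 members below 0 and a median of -0.08. The tetraspanin CD82 stood at 9.48 FPKM in MT, against 13.4 FPKM in EV (-0.46), and ULBP3, a ligand of the NK cell receptor NKG2D, at 3.59 FPKM in MT, against 6.29 FPKM in EV (-0.67). Wnt, Notch and Hedgehog genes had 29 of 41 members below 0 and a median of -0.06, and the Hedgehog receptor PTCH1 stood at 1.82 FPKM in MT, against 3.40 FPKM in EV (-0.64). The Notch ligand JAG1 was on the other side, at 37.3 FPKM in MT, against 29.4 FPKM in EV (0.33). Among the 59 measured iron and 2-oxoglutarate dioxygenases, the family of PHYHD1, no other member was past 1.5-fold, and the median was -0.03. tRNA modification enzymes were split evenly, with 41 of 82 above 0 and none past 1.5-fold.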
